A study of Mus musculus with 22 samples.

Results

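The T cell receptor beta (Trb) segments comprised every gene whose mouse symbol begins with Trbv (variable), Trbd (diversity), Trbj (joining) or Trbc (constant). They numbered 52 of the 43430 genes in each expression table: 34 Trbv, 2 Trbd, 14 Trbj and 2 Trbc. In the GENCODE M21 annotation of mm10 they lie on chr6:40891229-41558452, and 13 of the 34 Trbv are annotated as pseudogenes. The annotation holds 53 such genes; Trbv4 was not matched by its identifier and was not analysed here.

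The libraries were made from total RNA of sorted CD4+CD8+ (double-positive) thymocytes of mice. Every group carried the conditional E2aF/F alleles of E2a, the gene Tcf3, which encodes a transcription factor of the E protein family. Controls had no Cre. Vav knockouts were VavCre E2aF/F, with Cre driven by regulatory sequences of Vav, a gene active throughout blood cell development, and Lck knockouts were LckCre E2aF/F, with Cre driven by those of Lck, a gene active in thymocytes. At 4 weeks of age there were 3 Vav controls, 3 Vav knockouts, 3 Lck controls and 3 Lck knockouts. At 8 weeks there were 3 Vav controls, 3 Vav knockouts and 4 transplanted Vav knockouts, which had received sublethal irradiation and wild-type bone marrow and were sampled 4 weeks later. The series' design text says that the sorted cells were CD45.1+. The study asked how loss of E2a and competition from wild-type cells bear on thymocytes that can give rise to T cell leukaemia. Replicates carry numbers in the labels but no animal is named, and the tests below therefore rest on the variation among these libraries, part of which may be technical.

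A functional beta chain gene is built in the thymus by joining one Trbd to one Trbj and then one Trbv to the joined pair, which usually deletes the DNA between the joined segments. The Trbv segment encodes most of the variable domain, Trbd and Trbj complete its most variable loop, and splicing adds Trbc1 or Trbc2, each of which has its own upstream Trbd and Trbj cluster. Each T cell passes its own joined segments on to its daughters, and Trbj that lie downstream of the joined one stay in the locus and can appear in the unspliced transcript.

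The targeted gene Tcf3 had 6.39 to 8.22 FPKM (fragments per kilobase, scaled to library size) in the 9 control libraries and 1.15 to 2.32 FPKM in the 13 knockout libraries, the transplanted ones included, with no overlap. Library depth implied by the lowest values ran from 5.49 to 37.5 M reads (megareads). At that depth 1 read was worth 0.0667 to 0.456 FPKM in a 400-base gene and 0.534 to 3.65 FPKM in a 50-base Trbj. A listed 0 in a 50-base segment therefore allows up to 1.60 to 10.9 FPKM, taking 3 reads as the limit and covering counting error only. The summed FPKM of 7 double-positive markers (Cd4, Cd8a, Cd8b1, Cd3e, Rag1, Rag2 and Ptcra) lay between 3682 and 3987 in controls, 2730 and 3312 in Vav knockouts at 4 weeks, 3377 and 3559 in Lck knockouts, 1703 and 1976 in Vav knockouts at 8 weeks and 1180 and 2642 in transplanted mice. All 7 were above 1 FPKM in at least 1 library of every group.

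The segments on which the results turned are shown as the GENCODE transcripts of mm10 give them, 5′ to 3′ and on the plus strand. The 2 Trbd are short and rich in G and are printed whole in capitals.
Trbd1, chr6:41533201-41533212: GGGACAGGGGGC
Trbd2, chr6:41542163-41542176: GGGACTGGGGGGGC
The next are Trbj1-1, called in the comparison of ages, and 5 of the Trbj at which levels stepped up in knockout libraries. Capitals mark the motif TTNGG followed, after 4 bases of any kind, by GGN, searched on the sense strand only, which 11 of the 14 Trbj contain. They encode the conserved phenylalanine and glycines that close that loop.
Trbj1-1, chr6:41533864-41533911: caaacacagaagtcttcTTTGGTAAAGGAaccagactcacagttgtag
Trbj1-5, chr6:41535084-41535133: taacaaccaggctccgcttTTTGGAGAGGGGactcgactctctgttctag
Trbj2-1, chr6:41542754-41542803: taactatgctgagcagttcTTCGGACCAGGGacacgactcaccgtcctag
Trbj2-2, chr6:41542957-41543007: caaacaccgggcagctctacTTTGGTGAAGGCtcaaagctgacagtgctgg
Trbj2-3, chr6:41543223-41543271: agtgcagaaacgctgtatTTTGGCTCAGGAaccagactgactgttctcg
Trbj2-4, chr6:41543362-41543410: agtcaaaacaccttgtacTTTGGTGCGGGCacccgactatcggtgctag
The last set are the final 36 bases of 6 Trbv that led knockout libraries. These bases start that loop, and capitals mark the TGT, a cysteine codon, of the letters TGTGCN, searched on the sense strand only. The window holds those letters in 25 of the 34 Trbv but not in Trbv1 or Trbv20.
Trbv1, chr6:40891229-40891885: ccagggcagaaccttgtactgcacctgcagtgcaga
Trbv2, chr6:41047340-41047995: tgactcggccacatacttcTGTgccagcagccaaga
Trbv19, chr6:41178375-41179048: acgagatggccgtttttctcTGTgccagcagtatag
Trbv20, chr6:41188273-41188977: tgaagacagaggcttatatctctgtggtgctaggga
Trbv26, chr6:41227505-41227993: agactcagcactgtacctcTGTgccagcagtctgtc
Trbv29, chr6:41271394-41271881: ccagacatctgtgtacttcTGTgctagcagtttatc

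In every control library the measured Trbv stood in nearly the same proportions. Of the 34 Trbv, 17 were above 0 in at least 1 library and 17 were listed at 0 in all 22. The latter include 16 neighbours from Trbv6 to Trbv17 (chr6:41066879-41163556), among them the Trbv12, Trbv13 and Trbv14 to Trbv17 genes, so 9 segments not annotated as pseudogenes were not measured. All shares below are of the summed FPKM of the measured Trbv. Trbv1 was highest in 8 of the 9 controls, with 15.8% to 20.7% of the Trbv sum over all 9. Trbv2, Trbv3 and Trbv29 followed, and the annotated pseudogene Trbv24 reached 173 to 248 FPKM. The effective number of Trbv, 1 over the sum of squared shares, counts how many equally used segments would give the same evenness. It was 8.13 ± 0.06 in Vav controls at 4 weeks, 7.82 ± 0.15 in Lck controls and 7.86 ± 0.04 in Vav controls at 8 weeks (SD, n = 3 each). Any 2 controls of a group shared 96.8% to 98.3% of their Trbv profile, taken as the sum over segments of the smaller share.

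**Figure D1:**
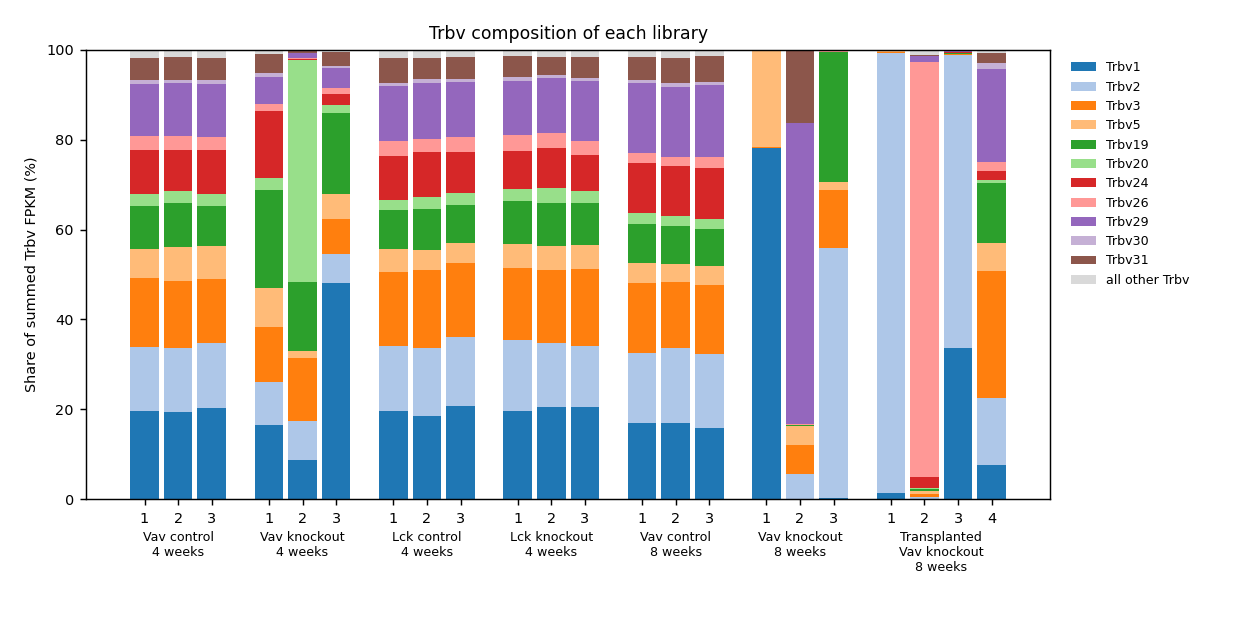
Stacked bars give the share (%) of each Trbv in the summed Trbv FPKM of each of the 22 libraries, numbered by replicate within the 7 groups. Control and Lck knockout bars look alike, while the leading segment differs among Vav knockout bars and reaches 98.0% for Trbv2 in transplanted replicate 1.

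At 4 weeks the Vav knockouts differed from controls and from each other in which Trbv they used. Replicate 1 was led by Trbv19 at 21.9%, replicate 2 by Trbv20 at 49.3% and replicate 3 by Trbv1 at 48.1%. Trbv20 had 48.2, 48.4 and 50.03 FPKM in the 3 controls and 36.3, 928 and 31.3 FPKM in the knockouts, so that 1 library stood 19.0-fold above the control mean and the other 2 below every control. Trbv1 had 351, 368 and 381 FPKM in controls and 240.0, 164 and 820.3 FPKM in knockouts, again with 1 high library. The effective number of Trbv was 7.37, 3.31 and 3.56, lower in each knockout than in any control, a difference of -3.39. Pairs of these knockouts shared 44.1% to 68.4% of their Trbv profile.

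Trbv19 was the only segment that rose past the test in Vav knockouts at 4 weeks. It had 172, 189 and 171 FPKM in controls and 319, 292 and 306 FPKM in knockouts, with no overlap, a log2 fold change of 0.78 ± 0.07 (SE, limma, adjusted p = 0.0027). Trbv2 fell from 256, 274 and 272 FPKM to 139.6, 163 and 111 FPKM, a log2 fold change of -0.96 ± 0.14 (limma, adjusted p = 0.00808). For both segments all 3 knockouts lay on the same side of all 3 controls. Trbv21 fell from 17.9, 19.3 and 18.5 FPKM to 5.23, 0.239 and 2.13 FPKM, a log2 fold change of -2.76 ± 0.53 (limma, adjusted p = 0.0200). The pseudogene Trbv25 fell from 2.15, 1.55 and 1.66 FPKM to 0.225, 0.118 and 0 FPKM, a log2 fold change of -1.32 ± 0.13 on log2(FPKM + 1), which understates changes of low genes (limma, adjusted p = 0.00277). It was at 1 FPKM or more in the controls only, so the filter passed it through the group where it was high. The call was kept without a filter.

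Of the 52 segments, 32 passed the filter of 1 FPKM in 3 libraries in the Vav table of 4 weeks, 33 in the Lck table and 31 in the table of 8 weeks. Of the 32, 1 was called higher and 3 lower. Among all 10828 genes tested 7.63% were called higher and 6.08% lower, so the shares of segments called stood near those of all genes. Groups did not overlap for 1 segment higher and 12 lower, against 19.2% and 18.7% of all genes. The median log2 fold change of the 32 was -0.49, beside -0.0083 for all genes. Calls depended on single libraries: 13 segments were called without knockout replicate 2, 10 without knockout replicate 1 and 2 without any 1 of control replicates 1, 2 or 3, where Trbv25 was no longer tested. Without any 1 of these controls, or without knockout replicate 3, Trbv21 was no longer called (limma, adjusted p 0.0655 to 0.0792), nor without a filter or with a pseudocount of 0.1 (limma, adjusted p = 0.0625 and 0.0511).

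Diversity and joining segments varied between the Vav knockouts at 4 weeks as well. Trbd1 had 567, 568 and 625 FPKM in controls and 372, 147 and 376 FPKM in knockouts, all below the controls (log2 fold change -1.09 ± 0.36, limma, adjusted p = 0.0939). Trbd2 had 283, 392 and 275 FPKM in controls and 826, 133 and 214 FPKM in knockouts, 1 above and 2 below. The Trbj1 cluster held 66.8%, 63.7% and 65.0% of the Trbj sum in controls and 72.0%, 37.0% and 67.7% in knockouts, so replicate 2, the library led by Trbv20, stood apart here too. Trbj1-5 had 859, 686 and 677 FPKM in controls and 846, 304 and 605 FPKM in knockouts, and Trbj2-7, the last joining segment, had 448, 435 and 397 FPKM against 338, 495 and 272 FPKM. Both pairs of groups overlapped.

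The constant genes showed no called change in Vav knockouts at 4 weeks. Trbc1 had 773, 832 and 828 FPKM in controls and 971, 671 and 826 FPKM in knockouts, and Trbc2 had 2705, 2908 and 2822 FPKM against 2809, 2012 and 2498 FPKM. Both pairs of groups overlapped. The 2 constant transcripts are 96.3% identical over 512 aligned bases, so how counting divided reads between them is uncertain. The share of Trbc1 in the 2 was higher in each knockout, 25.2% ± 0.4 against 22.4% ± 0.3 (SD, n = 3). It was also higher in each Lck knockout than in any Lck control, 25.2% ± 1.1 against 21.2% ± 0.7 (SD, n = 3). The summed Trbv was 1455, 1882 and 1706 FPKM in knockouts and 1795, 1903 and 1879 FPKM in controls, with overlap. In bulk samples such as these, fewer cells using a segment and less RNA per cell cannot be told apart.

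Lck knockouts at 4 weeks stayed close to the control pattern of Trbv. Trbv1 had 369, 332 and 407 FPKM in Lck controls and 369.8, 404 and 402 FPKM in Lck knockouts. Its share was 19.6%, 20.4% and 20.5% in the knockouts, inside the control range of 18.4% to 20.7%. Their effective number of Trbv was 7.80 ± 0.10 and that of controls 7.82 ± 0.15 (SD, n = 3 each), and knockout pairs shared 96.2% to 97.2% of their profile. Trbv2 had 272, 275 and 302 FPKM in controls and 297, 284 and 265 FPKM in knockouts, which overlap.

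Trbj2-1, the first joining segment of the second cluster, was the 1 segment called in Lck knockouts. It had 119, 143 and 169 FPKM in controls and 274, 263 and 266 FPKM in knockouts, a log2 fold change of 0.91 ± 0.12 (SE, limma, adjusted p = 0.0342). The groups did not overlap. Leaving out any 1 of the 6 libraries ended this call (limma, adjusted p 0.0626 to 0.143), as did scaling each library to a common sum (limma, adjusted p = 0.0501). Leaving out Lck knockout replicate 1 or 3 left 1 call, of another segment, and leaving out any of the other 4 libraries left 0. Of 33 segments tested, 1 was called higher and 0 lower, where 0.201% and 0.804% of 10946 genes were called, and 11 segments had an unadjusted p under 0.05. Groups did not overlap for 10 segments higher and 2 lower, against 11.7% and 8.27% of all genes.

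The 10 segments that lay higher in every Lck knockout were Trbd2, Trbc1, Trbj2-1, Trbj1-3 to Trbj1-6, Trbv5, Trbv19 and Trbv20. The 2 that lay lower were Trbv23 and Trbv24. Log2 fold changes were 0.21, 0.17 and 0.27 for Trbv5, Trbv19 and Trbv20, and -0.31 and -0.14 for Trbv23 and Trbv24. None of these Trbv was called (limma, adjusted p 0.147 to 0.405). Trbd2 had 295, 241 and 263 FPKM in controls and 405, 352 and 371 FPKM in knockouts, a log2 fold change of 0.50 ± 0.09 (limma, adjusted p = 0.0806). Trbc1 had 836, 833 and 863 FPKM against 1005, 1034 and 1035 FPKM, a log2 fold change of 0.28 ± 0.05 (limma, adjusted p = 0.0630). Neither passed the test, although no library of the 2 groups overlapped. Trbj1-5, the highest Trbj of the first cluster, had 870.0, 774 and 847 FPKM in controls and 1072, 1039 and 912 FPKM in knockouts (limma, adjusted p = 0.22).

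The 2 Cre lines at 4 weeks differed at 3 segments when the Lck effect was subtracted from the Vav effect. Trbv19 had a higher log2 effect by 0.61 ± 0.08 (SE, limma interaction, adjusted p = 0.00271). Trbv2 had a lower effect by -0.96 ± 0.16 (limma interaction, adjusted p = 0.0108) and Trbv21 a lower one by -2.77 ± 0.60 (limma interaction, adjusted p = 0.0321). Of 32 segments, 1 was called higher and 2 lower, where 1.65% of 10541 genes were called in each direction. Leaving out Vav knockout replicate 1 gave 10 calls and leaving out replicate 2 gave 9. The call of Trbv21 was lost without any 1 of the 3 Vav controls, the 6 Lck libraries or Vav knockout replicate 3 (limma, adjusted p 0.0615 to 0.0903).

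**Figure D2:**
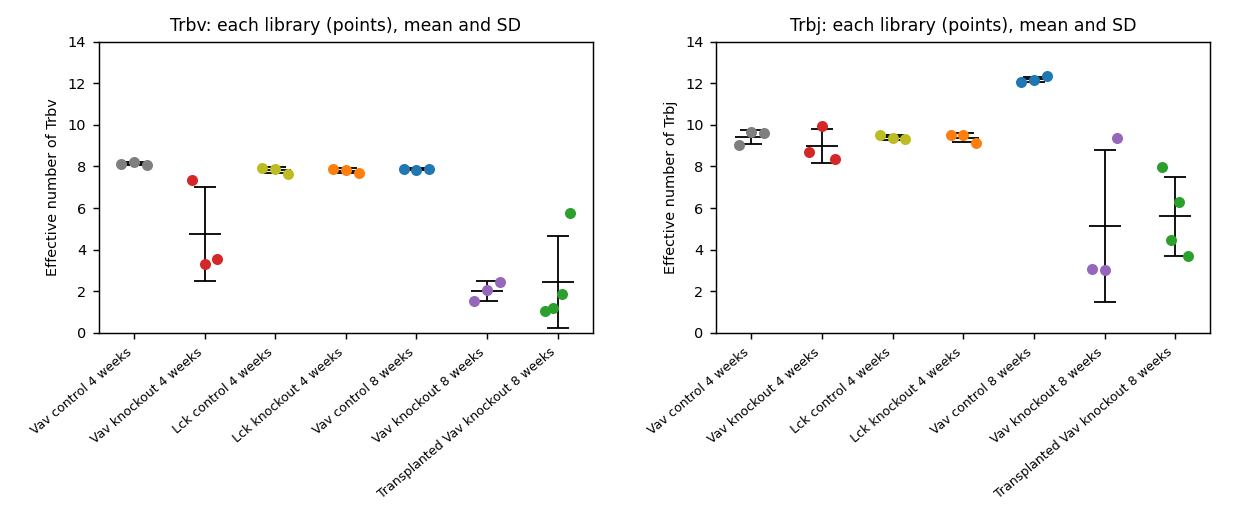
Points give each library's effective number of Trbv (left) and Trbj (right), with the mean and SD of each group as bars. Trbv values of Vav knockouts lie below those of their controls at both ages, while Lck knockouts and Lck controls overlap.

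At 8 weeks each Vav knockout library was dominated by 1 or 2 Trbv. Trbv1 made up 78.2% of the Trbv sum in replicate 1 and Trbv5 another 21.5%. Trbv2 made up 55.5% in replicate 3 and Trbv19 another 28.9%. In replicate 2 Trbv29 led with 66.9%, followed by Trbv31 with 16.1%, but its Trbv sum was only 197 FPKM against 1718 and 2460.4 FPKM in the other 2 knockouts and 2073 to 2194 FPKM in controls. With a gene without a symbol in the annotation counted as a Trbv, which had 586 FPKM in that library, Trbv29 would hold 16.8% and not lead. The effective number of Trbv was 1.52, 2.07 and 2.44 in knockouts and 7.90, 7.81 and 7.86 in controls, without overlap. Pairs of knockouts shared 2.39% to 14.2% of their Trbv profile.

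Trbv1, Trbv2 and Trbv19 were each high in 1 library and low in the others. Trbv1 had 367, 353 and 346 FPKM in controls and 1342, 0 and 7.77 FPKM in knockouts. Trbv2 had 337, 346 and 362 FPKM in controls and 2.05, 11.1 and 1366 FPKM in knockouts. Trbv19 had 186, 176 and 179 FPKM in controls and 0.553, 0.246 and 711 FPKM in knockouts. Trbv29, the leader of replicate 2, had 333, 324 and 353 FPKM in controls and 0, 132 and 6.17 FPKM in knockouts, below every control also where it led. For Trbv1, Trbv2 and Trbv19, 1 knockout lay above and 2 below all controls, and none of these 3 passed the test (limma, adjusted p 0.208 to 0.459). Of the 13 Trbv above 1 FPKM in every control, 9 to 11 were under 0.1 times the control mean in each knockout library.

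The 6 segments called in Vav knockouts at 8 weeks all fell, and all were Trbv that led no library of this group. Trbv24 had 242, 232 and 248 FPKM in controls and 0, 0 and 3.22 FPKM in knockouts, a log2 fold change of -7.22 ± 1.11 (SE, limma, adjusted p = 0.00583). Trbv20 had 53.7, 47.6 and 49.8 FPKM in controls and 0, 0.208 and 0.793 FPKM in knockouts, a log2 fold change of -5.31 ± 0.52 (limma, adjusted p = 0.000629). Trbv31, the inverted segment downstream of Trbc2, had 111, 117 and 124 FPKM in controls and 0.487, 31.7 and 2.34 FPKM in knockouts, a log2 fold change of -4.43 ± 0.90 (limma, adjusted p = 0.0188). All 3 lay below every control in each knockout library, and only Trbv31 in replicate 2 exceeded 3.22 FPKM there. Trbv21, Trbv23 and Trbv30 had 13.0 to 20.1 FPKM in controls and at most 0.104 FPKM in knockouts, and they fell with log2 fold changes of -4.19, -3.86 and -3.94 (limma, adjusted p 9.5e-06 to 0.000982). Trbv21 and Trbv30 were at 1 FPKM or more in the controls only, so the filter passed them through the group where they were high. Trbv20 and Trbv23 also stayed below 1 FPKM in every Vav knockout. Beyond the controls they reached it only in transplanted replicate 2 (4.42 and 2.44 FPKM), part of the same fit. The calls of all these segments were kept without a filter. The fitted values of segments at 0 depend on the pseudocount of 1.

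Of 31 segments tested, 0 were called higher and 6 lower, where 4.65% and 4.45% of 11632 genes were called. Groups did not overlap for 0 segments higher and 20 lower, against 28.9% and 28.7% of all genes. The median log2 fold change of the 31 was -3.97, beside -0.0049 for all genes, and all 31 were below 0. These are differences of mean logs, which libraries near 0 pull down. In plain FPKM the knockout mean exceeded the control mean for Trbv1 (450 against 355), Trbv2 (460 against 348) and Trbv19 (237 against 180). It also did so for Trbv5 (140 against 92.8), Trbd1 (1006 against 632) and Trbj2-4 (534 against 455), and was lower for the other segments tested. Fitting only the 6 libraries of the 2 groups called 13 segments, and leaving out control replicate 1, 2 or 3 left 3, with Trbv21 and Trbv30 then not tested. Trbv31 was not called without any 1 of the 3 controls or knockout replicates 1 or 3 (limma, adjusted p 0.0520 to 0.0873).

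Joining segments at 8 weeks showed sharp steps along the locus in single knockout libraries. In controls all 14 Trbj were between 121 and 803 FPKM, and the effective number of Trbj was 12.2 ± 0.1 (SD, n = 3). In knockout replicate 1 every Trbj upstream of Trbj2-4 was at or below 1.15 FPKM, then Trbj2-4 to Trbj2-7 ran from 121 to 472 FPKM. In replicate 2 Trbj2-1 and Trbj2-2 were at 1.39 and 12.3 FPKM, and Trbj2-3 and Trbj2-4 at 257 and 1345 FPKM. In replicate 3 Trbj1-1 was at 1.11 FPKM and every later Trbj at 104 FPKM or more, with peaks at Trbj1-6 (600.5 FPKM) and Trbj2-1 (544 FPKM). Effective numbers of Trbj were 3.06, 3.002 and 9.37, each below every control, and the Trbj1 cluster held 0.226%, 12.4% and 39.1% of the Trbj sum against 40.3% to 45.6%. The steps thus fell at different Trbj in the 3 libraries.

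**Figure D3:**
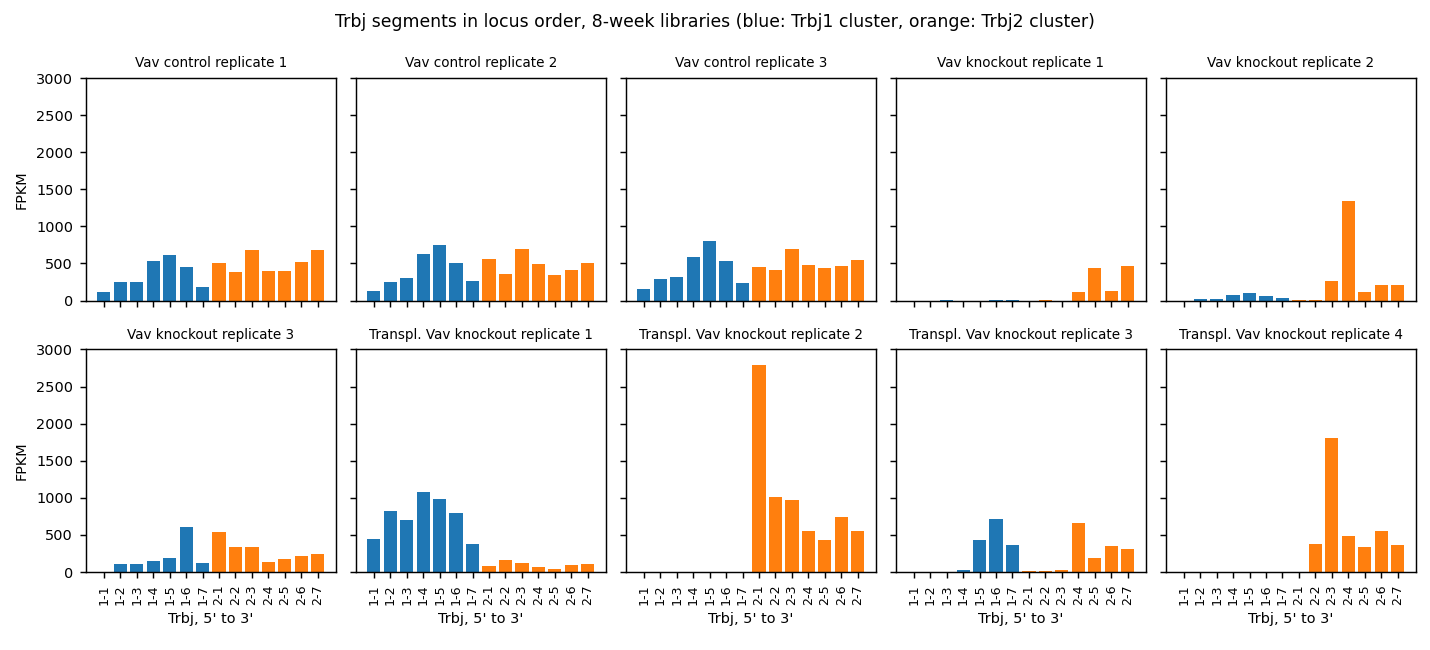
Bars give the FPKM of the 14 Trbj in 5′ to 3′ order for the 10 libraries of the 8-week table, Trbj1 cluster in blue and Trbj2 cluster in orange. Controls have values across both clusters, while all but 1 of the knockout libraries, transplanted replicate 1, step up at a Trbj, as from 0 at Trbj1-7 to 2785 FPKM at Trbj2-1 in transplanted replicate 2.

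Diversity and constant genes differed in the same libraries. Trbd1 had 641, 730.4 and 526 FPKM in controls and 400.1, 2609 and 8.86 FPKM in knockouts, from far above to far below the controls. Trbd2 had 891, 837 and 806 FPKM in controls and 0, 19.9 and 209 FPKM in knockouts, below all controls. The Trbd are 12 and 14 bases long and 11 of 12 aligned bases are identical, so a single read is worth more FPKM there than in longer genes and the assignment of reads is uncertain. Neither passed the test (limma, adjusted p = 0.743 for Trbd1 and 0.168 for Trbd2).

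Trbc1 had 948, 891 and 995 FPKM in controls and 4.64, 98.7 and 692 FPKM in knockouts at 8 weeks, below all controls. Trbc2 had 3183, 3337 and 3411 FPKM in controls and 3324, 3361 and 2199 FPKM in knockouts, which overlap. Knockout replicate 1, which had Trbj only from Trbj2-4 on, thus had 0.139% of its constant gene signal from Trbc1, where controls had 21.1% to 22.9%. Neither constant gene passed the test (limma, adjusted p = 0.314 and 0.82).

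Summed levels of markers of other T-lineage cells were higher in these libraries than in controls, while few single markers passed the test at 8 weeks. Of all genes tested, 7.63% were called higher in Vav knockouts at 4 weeks. At 8 weeks the share was 4.65% in Vav knockouts and 4.59% in transplanted mice. Of 7 gamma-delta T cell markers 6 were in the tables (Tcrg-C1, Tcrg-C2, Tcrg-C4, Sox13, Cd163l1 and Zbtb16). Their summed FPKM at 8 weeks was 4.40 to 5.02 in controls, 14.5 to 181 in Vav knockouts and 36.7 to 892 in transplanted mice. In controls Tcrg-C4, Sox13, Cd163l1 and Zbtb16 were below 1 FPKM in every library, and in Vav knockouts Sox13 was. Of the 4 tested at 8 weeks, limma called 0 in Vav knockouts, with 0 at an unadjusted p under 0.05, and 1 in transplanted mice, Tcrg-C1 (limma, adjusted p = 0.018). At 4 weeks the sum was 3.73 to 3.90 in Vav controls and 27.9 to 83.4 in Vav knockouts, and 3 of the 4 tested were called higher. Those 4 included Tcrg-C4 and Cd163l1, which were below 1 FPKM in every Vav control at both ages. The filter passed these genes only through knockout libraries, where they were high. The 5 double-negative thymocyte markers (Il2ra, Kit, Cd44, Hes1 and Dtx1) summed to 3.60 to 3.84 FPKM in Vav controls and 25.0 to 54.9 FPKM in Vav knockouts at 4 weeks, and to 2.77 to 3.26 FPKM in controls, 20.5 to 38.8 FPKM in Vav knockouts and 27.5 to 145 FPKM in transplanted mice at 8 weeks. Of those tested, limma called 2 of 2 higher at 4 weeks and 1 of 4 in Vav knockouts and 1 of 4 in transplanted mice at 8 weeks. At 4 weeks the sum in Vav knockouts was mostly Il2ra (13.5 to 30.9 FPKM) and Dtx1 (10.7 to 23.0 FPKM). Kit went the other way, with 0.143 to 0.238 FPKM in Vav controls and 0.0202 to 0.0464 FPKM in Vav knockouts. Cd44 was below 1 FPKM in every library, and at 8 weeks below every control in all transplanted libraries. Dtx1, Hes1 and Kit were below 1 FPKM in every control at 8 weeks, so the filter passed them through knockout libraries. The 4 mature single-positive markers (Klf2, S1pr1, Ccr7 and Il7r) summed to 3.60 to 3.87 FPKM in Vav controls and 10.8 to 14.2 FPKM in Vav knockouts at 4 weeks, and to 4.79 to 6.13, 12.1 to 30.1 and 10.7 to 119 FPKM in controls, Vav knockouts and transplanted mice at 8 weeks. Of these 4, limma called 4 higher at 4 weeks, but at 8 weeks 0 in Vav knockouts, with 1 at an unadjusted p under 0.05, and 0 in transplanted mice, also with 1. At 4 weeks Il7r, Klf2 and S1pr1 were below 1 FPKM in every Vav control and above it in every Vav knockout. The filter thus passed these genes only through the group where they were high. The sum of 119 FPKM, in transplanted replicate 2, was nearly all Il7r (117 FPKM). There Ccr7 (0.567 FPKM) and S1pr1 (0.152 FPKM) lay below every control and Klf2 (0.994 FPKM) within them. In Vav knockouts at 8 weeks Il7r, Klf2 and S1pr1 lay above every control, while Ccr7 overlapped them. The part of these markers, and of the lower double-positive marker sums given above, in the Trb values was not tested.

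**Figure D4:**
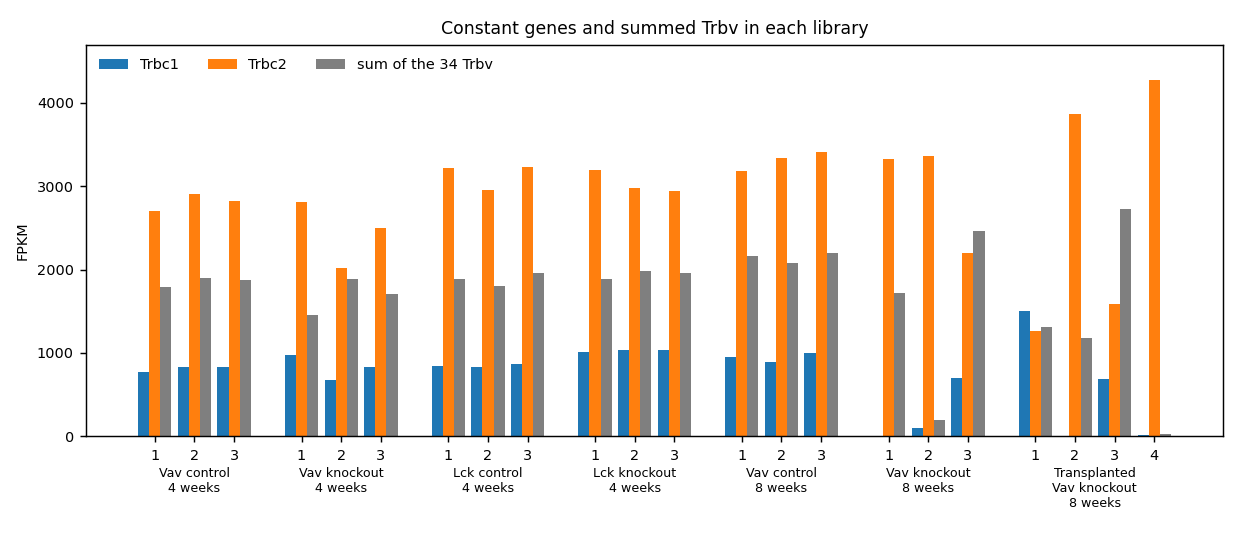
Bars give Trbc1, Trbc2 and the summed Trbv in FPKM for each library. Trbc1 is near 0 in Vav knockout replicate 1 at 8 weeks and transplanted replicates 2 and 4, and the summed Trbv is 26.9 FPKM in transplanted replicate 4 beside 4278 FPKM of Trbc2.

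Transplanted Vav knockouts at 8 weeks were compared with the same 3 controls, so their values share those libraries with the comparison above. Trbv2 made up 98.0% of the Trbv sum in replicate 1, and Trbv26 made up 92.4% in replicate 2. In replicate 3 Trbv2 took 65.1% and Trbv1 33.7%. Replicate 4 had a Trbv sum of 26.9 FPKM, led by Trbv3 at 7.62 FPKM, while its Trbc2 was 4278 FPKM. The effective number of Trbv was 1.04, 1.17, 1.86 and 5.74, all below the controls, with the last resting on low values. The same gene without a symbol had 523 FPKM in replicate 4; counted as a Trbv it would lead, Trbv3 would hold 1.38% and the effective number would be 1.11.

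The leading segments were high in 1 or 2 libraries and low in the rest, except Trbv3, which led replicate 4 at a level below every control. Trbv26 had 50.3, 41.3 and 52.2 FPKM in controls and 0.103, 1088, 1.17 and 0.522 FPKM in transplanted mice, 22.7-fold above the control mean in replicate 2. Trbv2 had 1285, 5.47, 1773 and 3.98 FPKM, with 2 libraries above and 2 below the controls. Trbv1 had 17.8, 0.856, 917 and 2.08 FPKM, with 1 library above. None of these 3 passed the test (limma, adjusted p 0.319 to 0.68). In each transplanted library 10 to 13 of the 13 Trbv were under 0.1 times the control mean.

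The 9 segments called in transplanted mice against controls all fell. Trbv3 had 336, 301 and 336 FPKM in controls and 3.71, 7.51, 6.36 and 7.62 FPKM in transplanted mice, a log2 fold change of -5.52 ± 1.16 (SE, limma, adjusted p = 0.0203). Trbv5 had 98.4, 82.7 and 97.3 FPKM in controls and 1.79, 7.21, 0.4 and 1.68 FPKM in transplanted mice, a log2 fold change of -4.94 ± 1.05 (limma, adjusted p = 0.0207). Trbv29 had 333, 324 and 353 FPKM in controls and 0.415, 15.8, 8.48 and 5.61 FPKM in transplanted mice, a log2 fold change of -5.76 ± 1.42 (limma, adjusted p = 0.0366). All 4 libraries were low for these 3 segments. Trbv20, Trbv21, Trbv23, Trbv24, Trbv30 and Trbv31, the 6 also called in untransplanted knockouts, had log2 fold changes of -3.39 to -6.04 (limma, adjusted p 8.57e-06 to 0.0118). Of these, Trbv21 and Trbv30 passed the filter through the controls only, and both calls were kept without a filter.

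Of 31 segments tested, 0 were called higher and 9 lower, where 4.59% and 4.6% of 11632 genes were called. Groups did not overlap for 0 higher and 10 lower, against 11.5% and 12.9% of all genes, and the median log2 fold change of the 31 was -3.71 beside -0.0063. Leaving out control replicate 1, 2 or 3 left 3 calls, with Trbv21 and Trbv30 then not tested. Without any 1 of these controls Trbv3, Trbv5, Trbv24 and Trbv29 were not called (limma, adjusted p 0.0647 to 0.135), nor was Trbv29 without transplanted replicate 1 or 4 (limma, adjusted p = 0.0782 and 0.0676).

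Joining segments stepped up in 3 of the 4 transplanted libraries. In replicate 2 all 7 Trbj1 segments were at or below 3.06 FPKM and Trbj2-1 was at 2785 FPKM. In replicate 4 Trbj2-1 was at 4.95, Trbj2-2 at 379 and Trbj2-3 at 1811 FPKM, with every Trbj upstream at or below 4.95 FPKM. In replicate 3 a step lay in each cluster, from 25.99 FPKM at Trbj1-4 to 431 FPKM at Trbj1-5 and from 28.0 FPKM at Trbj2-3 to 667 FPKM at Trbj2-4. On the log2 scale the largest step of its first cluster lay just before, from 0.472 FPKM at Trbj1-3 to 25.99 FPKM at Trbj1-4. Replicate 1 had no such step: its Trbj1 segments had 383 to 1082 FPKM, and its Trbj2 segments 38.9 to 159.6 FPKM. It was the 1 library of all 22 with more Trbc1 (1503 FPKM) than Trbc2 (1257 FPKM), and it had 2152 FPKM of Trbd2.

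Trbc1 had 1503, 4.70, 685 and 8.57 FPKM in transplanted mice, so replicates 2 and 4, which had almost no Trbj1, had almost no Trbc1. Trbc2 had 1257, 3869.6, 1587 and 4278 FPKM, with 2 libraries below and 2 above every control. Neither constant gene passed the test (limma, adjusted p = 0.346 and 0.554). Trbd1 had 629, 2993, 0 and 191 FPKM and Trbd2 2152, 3.64, 316 and 4.42 FPKM, each spanning the controls.

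Transplanted and untransplanted Vav knockouts at 8 weeks were not told apart by any single segment. Of 31 tested, 0 were called in either direction with limma, where 0% of 11632 genes were called, and 1 had an unadjusted p under 0.05. That segment was Trbv5, which had 369, 8.51 and 41.9 FPKM in untransplanted and 1.79, 7.21, 0.4 and 1.68 FPKM in transplanted knockouts, a log2 fold change of -4.13 ± 1.05 (limma, adjusted p = 0.694). It was the 1 segment whose groups did not overlap, lower in transplanted mice, against 3.46% of all genes higher and 2.53% lower. Median standard errors were 1.86 for the 31 segments and 0.202 for all genes, and a p that misses the threshold does not show that the groups act alike. The effective number of Trbv overlapped between the 2 groups.

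**Figure D5:**
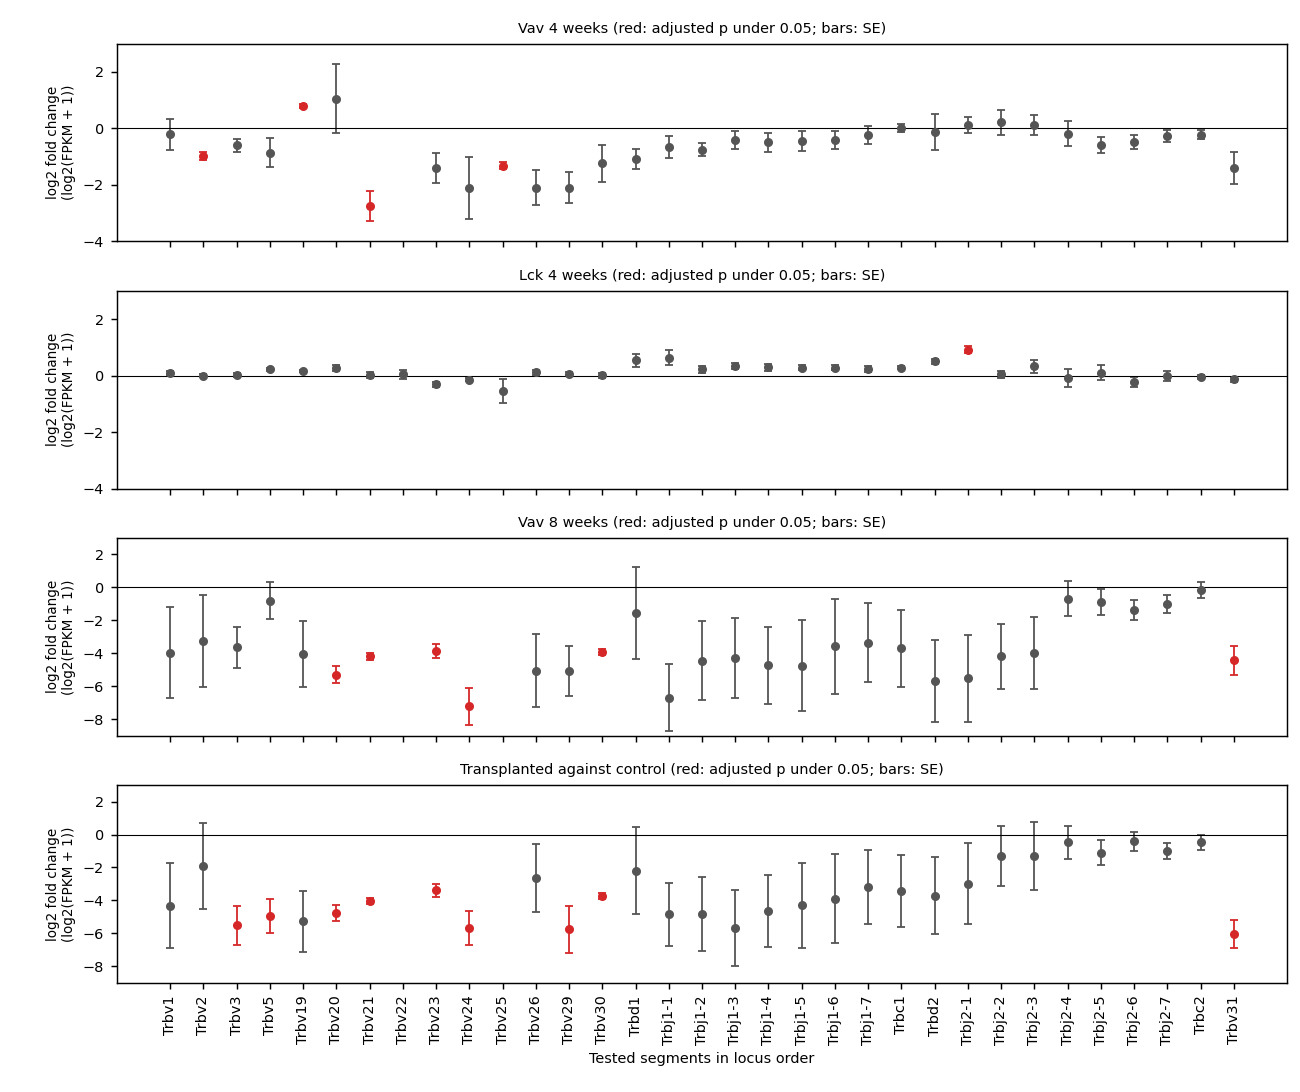
Points give the log2 fold change (on log2(FPKM + 1)) of each tested segment in locus order with its SE, in 4 comparisons; red marks adjusted p under 0.05. At 8 weeks values lie mostly below 0 with wide errors, while the Lck values lie near 0.

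Replicates of the Vav knockouts differed from each other more than those of the other groups. The median SD of the tested segments over replicates, on log2(FPKM + 1), was 0.084 in Vav controls at 4 weeks and 0.76 in Vav knockouts, beside 0.069 and 0.115 for all genes tested. Of the 108 genes with the highest SD in those knockouts, 1% of all, 13 were Trb segments, and Trbv20 ranked 3. In Lck knockouts the median was 0.113 beside 0.092 for all genes, and 0 of the 109 widest genes were segments. At 8 weeks the median SD was 0.125 in controls, 3.11 in Vav knockouts and 2.73 in transplanted mice, beside 0.097, 0.146 and 0.363 for all genes. Of the 116 widest genes there, 20 in Vav knockouts and 17 in transplanted mice were segments, led by Trbv1 and Trbj1-6, which each ranked 1. An SD above 1 was found for 67.7% of segments and 1.83% of all genes in Vav knockouts, and for 74.2% and 6.97% in transplanted mice. The limma fit uses 1 spread for all groups, so it understates the error of a knockout mean here.

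The Vav effect at 8 weeks was lower than at 4 weeks for 6 segments. Trbj1-1, the first joining segment of the locus, differed by -6.03 ± 0.54 on the log2 scale (SE, limma interaction, adjusted p = 0.00032): it had 57.0, 18.1 and 28.0 FPKM in Vav knockouts at 4 weeks and 0, 0 and 1.11 FPKM at 8 weeks. Its Vav controls had 40.9 to 56.9 FPKM at 4 weeks and 121 to 151 FPKM at 8 weeks, so part of the difference lies in the controls. Trbv20 differed by -6.37 ± 1.40 (limma interaction, adjusted p = 0.0132), a value that rests partly on its 928 FPKM in 1 library at 4 weeks. Trbv23, Trbv24, Trbv26 and Trbv30 differed by -2.46 to -5.11 (limma interaction, adjusted p 0.0203 to 0.0293). Without a filter these segments lost their calls (limma interaction, adjusted p 0.0583 to 0.0787), while Trbv20 kept its call. Trbv20, Trbv23, Trbv26 and Trbv30 had at most 0.822 FPKM in Vav knockouts at 8 weeks. In this fit the filter at that age thus passed them only through the controls, where they were high. Of 31 segments, 0 were called higher and 6 lower, where 8.87% and 9.37% of 10489 genes were called. Leaving out Vav knockout replicate 3 at 8 weeks gave 17 calls, leaving out control replicate 1, 2 or 3 at 8 weeks left 1, with Trbv20, Trbv23, Trbv26 and Trbv30 then not tested, and leaving out control replicate 2 or 3 at 4 weeks left 3. Trbv24 lost its call without any 1 of the 6 controls, knockout replicate 3 at 4 weeks or knockout replicate 1 or 2 at 8 weeks (limma, adjusted p 0.0506 to 0.0647). Trbv30 lost it without any 1 of the 3 controls at 4 weeks or knockout replicate 1 or 3 of that age (limma, adjusted p 0.0510 to 0.0665), Trbv23 without control replicate 2 and Trbv26 without control replicate 3 of that age (limma, adjusted p = 0.0501 and 0.0504).

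Where along the locus the used Trbv lay also varied by library. The share-weighted mean distance of the Trbv from Trbd1 was 406 to 427 kb in the 9 controls and 426 to 428 kb in Lck knockouts. It was 403 to 501 kb in Vav knockouts at 4 weeks, 259.8 to 604 kb at 8 weeks and 309 to 536 kb in transplanted mice. Group means at 8 weeks, 437 kb in Vav knockouts and 409 kb in controls, differed by less than the knockout SD of 173 kb. The highest value belonged to Vav knockout replicate 1 at 8 weeks, which used Trbv1, the most distant segment. The lowest, 259.8 kb, belonged to replicate 2 of that group, whose Trbv sum was 197 FPKM. The 410 kb of transplanted replicate 4 rested on a Trbv sum of 26.9 FPKM. The gene without a symbol, at 586 and 523 FPKM in these 2 libraries, is not part of the distances. Nor are the Trbv listed at 0 in all libraries.

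Of 16 tested genes that carry out V(D)J recombination, 2 were called higher and 2 lower in Vav knockouts at 4 weeks (median log2 fold change -0.15), where 7.63% and 6.08% of all genes were called. Rag2, a subunit of the recombinase, fell by 0.61 on the log2 scale (limma, adjusted p = 0.0101) and Rag1, the other subunit, fell by 0.53 (limma, adjusted p = 0.0175). Xrcc6, the Ku70 end-binding protein, rose by 0.71 (limma, adjusted p = 0.00684), and Poll, a gap-filling polymerase, rose by 0.88 (limma, adjusted p = 0.00421). Poll had 0.339 to 0.479 FPKM in Vav controls and 1.45 to 1.87 FPKM in Vav knockouts at 4 weeks, and was below 1 FPKM in every control at 8 weeks. At both ages the filter thus passed Poll only through the knockout libraries, where it was high. At 8 weeks 3 of 16 were higher and 2 lower (median -0.23), where 4.65% and 4.45% of all genes were called. Rag2 had 59.4, 63.0 and 61.5 FPKM in controls and 5.31, 4.53 and 5.93 FPKM in Vav knockouts, a log2 fold change of -3.32 (limma, adjusted p = 0.00734). In transplanted mice 1 was higher and 4 lower (median -0.30), where 4.59% and 4.6% of all genes were called, and Rag2 had 2.80, 1.84, 10.01 and 13.2 FPKM (log2 fold change -3.28, limma, adjusted p = 0.0049). In Lck knockouts limma called 0 of 15, with 5 at an unadjusted p under 0.05, where 0.201% of all genes were called higher and 0.804% lower.

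Of 11 pre-TCR and receptor complex genes, 0 were called higher and 2 lower in Vav knockouts at 4 weeks, against the 7.63% and 6.08% of all genes. Ptcra, the invariant partner of the beta chain in the pre-TCR, had 20.4, 22.6 and 23.3 FPKM in controls and 10.1, 9.86 and 7.17 FPKM in Vav knockouts, a log2 fold change of -1.21 (limma, adjusted p = 0.00354). It also fell in Lck knockouts, the 1 gene of the 11 called there, by 0.78 (limma, adjusted p = 0.027), where 0.804% of all genes were called lower. At 8 weeks 2 of the 11 were lower in Vav knockouts and 2 in transplanted mice, against 4.45% and 4.6% of all genes, and in both cases these were Cd247, the receptor's zeta chain, and Lcp2, an adaptor of receptor signalling. The 13 factors with a known role at the locus are to be read against the same shares of all genes. Of these, 1 was higher and 2 lower in Vav knockouts at 4 weeks: Lef1, a factor of early T cell development, rose by 0.51 (limma, adjusted p = 0.0115), while Tcf3 itself and Smarca4, an ATPase of chromatin remodelling, fell. Tcf3 and Smarca4 were also the 2 called lower, with 0 higher, in Lck knockouts, Vav knockouts at 8 weeks and transplanted mice.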

How the data were processed

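Total RNA of sorted double-positive thymocytes was sequenced from 22 samples in 7 groups, which the labels' titles and genotypes define. The authors deposited FPKM per gene in 3 tables of 43430 genes. Trimmomatic 0.33, STAR, HTSeq 0.6.1, DESeq2 and mm10 are named, without role or order, per the submitters' processing notes. Gene lengths, strand use and treatment of reads shared by segments are not given in the sources used here. Symbols, types and sequences came from GENCODE M21 by Ensembl identifier, which gave 42546 genes a symbol. No pair of libraries was identical (0 pairs), and 0 sample columns were unused. Read totals were inferred from the steps of low values, of which 43.9% to 51.5% were whole multiples within a tolerance of 0.03, so they are approximate.

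Tests used limma 3.58.1 in R 4.3.3 on log2(FPKM + 1) with a variance trend, over all genes with 1 FPKM in 3 libraries, with 2-sided Benjamini-Hochberg adjusted p under 0.05. The 8-week groups were fitted together. Levels were compared within a table, and interactions compare effects. Sums, shares and effective numbers are scores over the segments and carry no p. The fit was tested on simulated data that gave every library the spread of the controls. That test does not cover the wider spread of segments among Vav knockouts. Named with values were the Trbc and Trbd, the 10 Trbv of highest mean share, each library's leading Trbv, the highest Trbj of each cluster and each segment called, and of each context list up to 4 called genes of smallest p; other Trbj were added at steps seen in the data. The segments and lists were chosen with earlier results of these data known, and some marker genes of the lists are not reported here. Alternatives were the pseudocount, filters, scalings, robust variances, a replicate block, fits of 2 groups and leaving out libraries.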

Additional observations from a re-analysis of the deposited data

Results flagged for a closer look

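In the transplanted group, the 1 group of 4 libraries, 9 of 34 segments had 1 library whose distance to the nearest other exceeded 0.829 of the whole range (Dixon's criterion). For 4 independent normal values, chance gives such a library in about 1 in 20 groups. FPKM need not follow that distribution, and all segments come from the same 4 libraries. The 9 of 34 can therefore not be set against that rate. Replicate 2 was the high library for Trbv26 (1088 FPKM), Trbj2-1 (2785 FPKM), Trbv25 (7.66 FPKM), Trbv20 (4.42 FPKM), Trbv23 (2.44 FPKM) and Trbv21 (0.684 FPKM). Replicate 1 was high for Trbd2 (2152 FPKM) and Trbj1-1 (439.9 FPKM), and replicate 3 for Trbv1 (917 FPKM).

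The Vav and Lck effects at 4 weeks differed by the limma interaction test for Trbv2 (-0.96), Trbv19 (0.61) and Trbv21 (-2.77), on the log2 scale. The Vav effects at 8 and 4 weeks differed by the same test for Trbv20 (-6.37), Trbj1-1 (-6.03), Trbv24 (-5.11), Trbv26 (-2.96), Trbv30 (-2.71) and Trbv23 (-2.46).

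In other pairs of comparisons every knockout library lay above its controls in one and below them in the other, and the difference between the comparisons was not tested. Lck knockouts lay higher and Vav knockouts at 8 weeks lower for Trbv20 (log2 fold changes 0.27 and -5.31), Trbj1-5 (0.28 and -4.76), Trbc1 (0.28 and -3.69) and Trbd2 (0.50 and -5.69). Lck knockouts lay higher and transplanted mice lower for Trbv5 (0.21 and -4.94), Trbv19 (0.17 and -5.27) and Trbv20 (0.27 and -4.77). Vav knockouts at 4 weeks lay higher and transplanted mice lower for Trbv19 (0.78 and -5.27).

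The gene ENSMUSG00000076464, which has no symbol in the annotation used and was singled out after its values were seen, had 586 FPKM in Vav knockout replicate 2 at 8 weeks and 523 FPKM in transplanted replicate 4. The highest of the 3 controls of that age had 58.0 FPKM. These are the 2 libraries with the lowest summed Trbv.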

How the results depend on the processing

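Outside counts of calls and effective numbers, 765 recomputed values kept direction and side of the threshold or stayed within the replicate SD, 72 lost the call, 3 gained it, 16 changed sign and 3, all sums over the locus scaled to a common sum, moved by more than the replicate SD. Without pseudogenes the Vav difference in the effective number of Trbv at 8 weeks was -4.84, with FPKM times exon length -5.31, and with the gene lacking a symbol counted as a Trbv, an alternative chosen after seeing the data, -6.33, against -5.84. Segments called at 8 weeks rose from 6 to 13 when only the 2 groups were fitted. The 1 call in Lck knockouts became 2 with a pseudocount of 0.1 or robust variances (the added segment was Trbc1) and 0 without a filter or with a common sum. The difference of Vav effects by age gave 2 calls without a filter. Trbc1 in Vav knockouts at 4 weeks changed sign to -0.056 with a common sum and -0.15 with quantile scaling. The Trbc2 difference by age changed sign to -0.052 and -0.64 with these, and the Trbc2 difference between Cre lines to 0.66 with quantile scaling. The cause was not tested.

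Leaving out 1 library gave 2 to 13 calls for Vav at 4 weeks, 0 to 1 for Lck, 3 to 7 for Vav at 8 weeks, 3 to 11 for transplanted mice against controls, 2 to 10 between Cre lines and 1 to 17 between ages. It changed the sign of constant genes that were not called. Trbc1 ranged from -0.12 to 0.14 in Vav knockouts at 4 weeks and from -1.60 to 1.87 in transplanted against other knockouts. Trbc2 ranged from -0.29 to 0.015 in Vav knockouts at 8 weeks, from -0.56 to 0.032 in transplanted against other knockouts and from -0.10 to 0.23 between ages.

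Replicate numbers did not pair the samples (correlations of same-numbered deviations -0.109 to 0.181). With a replicate block, calls were 4 for Vav and 0 for Lck at 4 weeks, 6 for Vav at 8 weeks, 6 for transplanted mice, 2 between Cre lines and 6 between ages. The depth and shortness of Trbd and Trbj limit what a listed 0 means there.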

Other observations

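The gene without a symbol followed the pattern of single high libraries seen for the Trbv. It had 58.0, 52.3 and 52.6 FPKM in controls at 8 weeks, 7.57, 586 and 0.676 FPKM in Vav knockouts and 0.373, 3.12, 0 and 523 FPKM in transplanted mice. At 4 weeks it had 88.5, 83.2 and 84.8 FPKM in Vav controls and 61.3, 9.89 and 23.3 FPKM in Vav knockouts. Added to the Trbv sum it would hold 74.9% of it in Vav knockout replicate 2 at 8 weeks and 95.1% in transplanted replicate 4. Its identity was not analysed here.

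Trbj levels also differed between the tables of the 2 ages, which were normalized separately, so no test was made. Trbj2-4 had 43.7, 49.4 and 51.2 FPKM in Vav controls at 4 weeks and 399.8, 488 and 478 FPKM in Vav controls at 8 weeks. Trbj2-5 had 49.0, 47.1 and 45.2 FPKM and 398, 339 and 443 FPKM in the same libraries. Trbj2-7, their neighbour, had 448, 435 and 397 FPKM and 682, 512 and 545 FPKM.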
